A study of Mus musculus with 26 samples.

Results

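Apart from a pseudogene named below, the genes described here encode the nuclear subunits of mitochondrial complexes I to V, the respiratory chain and the ATP synthase. They were found by symbol in 4 FPKM tables (fragments per kilobase of transcript, scaled to each library's total, a level per transcript length) from mouse proximal small intestinal epithelium. The symbols taken were those that begin with NDUFA, NDUFB, NDUFC, NDUFS or NDUFV and a digit, SDHA to SDHD, those that begin with UQCR, CYC1, COX4 to COX8, and those that begin with ATP5. This gave 87 genes of the 20409 symbols found over all tables, of which 66 stood in every table. Of these, 84 were listed for the SMAD1/5 mutants at day 6, 66 for the SMAD mutants at day 30, 87 for SMAD4 and 84 for TBX3. Complex I, the NADH dehydrogenase, was the largest group with 38 genes in 3 tables and 40 in the SMAD4 table. The 40 include Ndufs5-ps, marked by its symbol as a pseudogene of Ndufs5, which was tested with the rest. Its level, 108 FPKM in controls, is uncertain because reads could be split between it and Ndufs5. Complex II, succinate dehydrogenase, had 4 genes and complex III, the cytochrome bc1 complex, had 9. Complex IV, cytochrome c oxidase, had 14 to 17 genes. Complex V, the ATP synthase, had 17 genes in 3 tables and 1, Atp5pb, in the day 30 SMAD table, whose other ATP synthase subunits are not analysed here. The 13 subunits encoded by mitochondrial DNA matched no row and are not analysed here either.

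As background, complexes I and II pass electrons from NADH and succinate to ubiquinone, complex III passes them on to cytochrome c, and complex IV passes them to oxygen. Complexes I, III and IV pump protons across the inner mitochondrial membrane, and complex V uses the returning protons to make ATP. Most subunits come from nuclear genes spread over many chromosomes, and several subunits of complex IV exist as tissue-specific isoforms. Absorptive cells of the villus draw on this machinery for ion and nutrient transport, and their metabolic programme changes along the crypt to villus axis. Bone morphogenetic protein (BMP) signals act through the transcription factors SMAD1, SMAD5 and SMAD4, and TBX3 belongs to the T-box family of DNA-binding regulators. The study's title places these factors in the patterning of the villus, and its design compares mutant with control epithelium in 4 separate experiments.

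All 26 libraries came from whole epithelial preparations, and all mutants carried Villin-CreERT2, a tamoxifen-activated recombinase driven by an intestinal epithelial promoter, and were injected with tamoxifen on 4 consecutive days. Day 6 and day 30 are counted from the injection that began the series. At day 6, 3 SMAD1/5 inducible double knockout (iDKO) libraries were set against 3 controls given tamoxifen. At day 30, 2 SMAD1/5 iDKO and 3 SMAD1/4/5 inducible triple knockout (iTKO) libraries shared 5 controls. Controls 1 and 2 of these belonged to the SMAD1/5 line and had tamoxifen, and controls 3, 4 and 5 belonged to the SMAD1/4/5 line and had oil. The SMAD4 table held 2 iKO (inducible knockout) libraries and 2 oil controls at day 6, and 3 TBX3 iKO libraries were set against 3 oil controls at day 30. Controls were sex-matched littermates that lacked the recombinase or had oil, so deletion, recombinase activity and, for the oil controls, tamoxifen cannot be told apart. No ages are given in the labels used here. The labels call the samples replicates of a genotype and name no animals, so p-values measure the spread between these libraries.

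Of the targeted genes, Smad4 lay at 22.9 and 24.9 FPKM in SMAD4 controls and at 5.11 and 7.19 in the iKO. Tbx3 lay at 45.5, 53.7 and 56.3 FPKM in TBX3 controls and at 7.53, 16.9 and 22.9 in the iKO. Smad4 was also low in the iTKO libraries, at 32.1 to 46.7 FPKM against 128 to 163 in the 5 controls, while in these libraries Smad1 overlapped the controls (26.6 to 40.5 against 27.8 to 38.4) and Smad5 was higher (30.5 to 32.1 against 14.4 to 16.9). The libraries labelled SMAD1/5 iDKO likewise showed no loss of their targets: at day 6 Smad1 spanned 8.34 to 10.2 FPKM against 9.07 to 10.6 in controls, and Smad5 was higher, at 10.4 to 13.1 against 5.69 to 6.33. A level for the whole gene does not check the loss of some of its exons, so every direction below for the SMAD1/5 iDKO libraries, and for the SMAD1 and SMAD5 part of the iTKO, rests on the label. Tbx3 was also lower in the SMAD mutants, at 6.36 to 7.79 FPKM in the day 6 iDKO against 35.9 to 40.6 in controls. At day 30 it lay at 15.9 and 19.6 in the iDKO and 11.2 to 18.9 in the iTKO, against 47.9 to 70.7 in controls. In the SMAD4 iKO it lay at 13.4 and 14.7, against 44.1 and 47.3. These levels do not check the deletion of Smad1 or Smad5 either. Epithelial identity was clear in all libraries: the 10 enterocyte markers summed to 21632 to 39621 FPKM, while stromal, muscle and endothelial markers summed to 3.20 to 13.3. Estimated depths, in 1e6 fragments, were 20.99 to 30.48 at day 6 for SMAD1/5, 13.11 to 18.09 at day 30 and 10 to 18.57 for TBX3, and are unknown for SMAD4.

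Promoter windows are shown for 6 members, since the transcripts below move as a group in some libraries while few pass a test. Of the 87 members, 68 had an entry in the RefSeq promoter table (build GRCm38.p6). The windows are the 250 bases before the transcript start, 5′ to 3′ on the gene's strand. Capitals mark letters searched on both strands: the NRF1 motif (nuclear respiratory factor 1, an activator of many respiratory chain genes) with any base at one position of its centre, CCGGAAG for ETS factors and GGGCGG for SP1. Cox6a1 (chr5:115348959-115349208, minus strand) and Sdha (chr13:74350241-74350490, minus strand) are shown because they hold 2 and 3 NRF1 matches. Ndufb3 (chr1:58586147-58586396, plus strand), Atp5e (chr2:174464102-174464351, minus strand), Cox7a1 (chr7:30183921-30184170, plus strand) and Cox6b2 (chr7:4753095-4753344, minus strand) are shown because they are the 4 members past the threshold in a comparison.
Cox6a1: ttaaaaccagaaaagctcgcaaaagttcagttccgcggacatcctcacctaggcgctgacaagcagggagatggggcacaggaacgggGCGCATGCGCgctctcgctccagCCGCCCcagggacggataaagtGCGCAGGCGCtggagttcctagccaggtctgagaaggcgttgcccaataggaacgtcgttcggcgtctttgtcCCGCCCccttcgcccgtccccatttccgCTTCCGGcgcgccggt
Sdha: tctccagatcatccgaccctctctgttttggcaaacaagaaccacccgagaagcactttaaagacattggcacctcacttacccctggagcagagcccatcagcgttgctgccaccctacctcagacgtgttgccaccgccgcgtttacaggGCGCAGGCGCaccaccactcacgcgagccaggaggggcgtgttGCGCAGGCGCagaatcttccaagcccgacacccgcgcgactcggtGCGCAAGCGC
Ndufb3: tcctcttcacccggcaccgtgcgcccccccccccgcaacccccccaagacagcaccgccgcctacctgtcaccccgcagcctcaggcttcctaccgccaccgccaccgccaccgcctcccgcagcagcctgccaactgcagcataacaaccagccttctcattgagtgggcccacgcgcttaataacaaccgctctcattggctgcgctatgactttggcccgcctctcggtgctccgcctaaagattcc
Atp5e: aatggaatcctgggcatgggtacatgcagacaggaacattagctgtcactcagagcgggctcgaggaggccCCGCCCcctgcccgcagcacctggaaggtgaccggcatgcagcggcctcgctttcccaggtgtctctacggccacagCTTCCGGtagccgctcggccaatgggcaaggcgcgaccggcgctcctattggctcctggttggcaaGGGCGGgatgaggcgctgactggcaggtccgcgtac
Cox7a1: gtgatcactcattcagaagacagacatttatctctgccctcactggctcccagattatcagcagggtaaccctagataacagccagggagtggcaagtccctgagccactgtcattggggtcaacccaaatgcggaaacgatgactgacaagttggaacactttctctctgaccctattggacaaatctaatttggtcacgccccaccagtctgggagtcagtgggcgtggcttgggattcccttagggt
Cox6b2: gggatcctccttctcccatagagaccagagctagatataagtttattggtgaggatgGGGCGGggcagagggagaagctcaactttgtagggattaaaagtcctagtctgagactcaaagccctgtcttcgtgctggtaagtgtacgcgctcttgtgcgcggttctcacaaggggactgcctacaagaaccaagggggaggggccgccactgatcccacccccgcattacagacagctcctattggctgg

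Some genes have several starts, and a gene was counted if any of its windows held the letters. Among the 68 genes, the NRF1 motif occurred in 13 (19.1%), against 4.23% of 27025 genes. Its strict form, with the central base fixed, is contained in those matches and occurred in 4 (5.88%), against 0.877%. CCGGAAG occurred in 12 (17.6%), against 7.83%, and GGGCGG in 25 (36.8%), against 35.4%. GGCGCC, a letter pattern bound by BMP SMADs, occurred in 11 genes (16.2%), against 10.8%, and AGGTGTGA, a T-box pattern, in 0 against 1.30%. TCAAGGTCA for ERR occurred in 1 gene (1.47%, against 0.422%), AAGATGGC for YY1 in 1 (1.47%, against 1.83%) and CAAAGTCCA for HNF4 in 0 (against 0.451%). None of these searched patterns stood in the Ndufb3 or Cox7a1 window. These are matches of letters in a fixed window and show no binding.

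In control epithelium the subunit transcripts were abundant and uneven within each complex. At day 6 the 84 members of the SMAD1/5 table had a median of 76.4 FPKM. The complex medians were 51.2 FPKM for I, 153 for II, 149.9 for III, 106.5 for IV and 158 for V. Complex I also had the lowest median in the SMAD4 table (145 FPKM, against 342 to 684 for the other complexes), in the TBX3 table (54.6, against 146 to 162) and in the day 30 SMAD table (106.3, against 243 to 389). Cox6a1, the widely expressed isoform of subunit 6A, ranked above all other members in 3 tables, with 632 ± 77 FPKM (SD, n = 3) at day 6, 1816 ± 111 (SD, n = 2) in the SMAD4 controls and 541 ± 93 (SD, n = 3) in the TBX3 controls. In the day 30 SMAD controls Cox4i1, the common isoform of subunit 4, ranked above it at 1054 ± 131 FPKM, against 889 ± 133 for Cox6a1 (SD, n = 5). Their values overlapped there, since Cox4i1 spanned 921 to 1228 FPKM and Cox6a1 spanned 758 to 1086. Levels are compared between genes of a table only, because the tables were normalised separately.

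Within paralog pairs, one isoform was usually far above the other. The muscle isoforms Cox6a2 and Cox8b and the hypoxia-linked Ndufa4l2 and Cox4i2 lay at or under 1.58 FPKM in every library that held them. Their partners Cox6a1, Cox8a, Ndufa4 and Cox4i1 averaged 105 to 1816 FPKM in controls. Ndufa4, placed with complex I by its symbol, is now known to sit with complex IV. Cox7a1, known as the heart and muscle isoform of subunit 7A, was an exception, at 77.9 ± 9.8 FPKM (SD, n = 3) in day 6 SMAD1/5 controls beside 207 ± 31 for the widespread Cox7a2. Stromal, muscle and endothelial markers were near 0 in the same libraries, at a sum of 5.23 to 5.93 FPKM. Cox6b2, known from testis, was low but present, at 1.42 ± 0.37 FPKM (SD, n = 3) beside 340 ± 68 for Cox6b1. Of the 3 genes for the ATP synthase c ring, Atp5g3 led at 265 ± 33 FPKM, with Atp5g2 at 41.4 ± 3.5 and Atp5g1 at 30.5 ± 2.5 (SD, n = 3). Atp5g3 was also the highest of these in the SMAD4 and TBX3 controls.

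**Figure D1:**
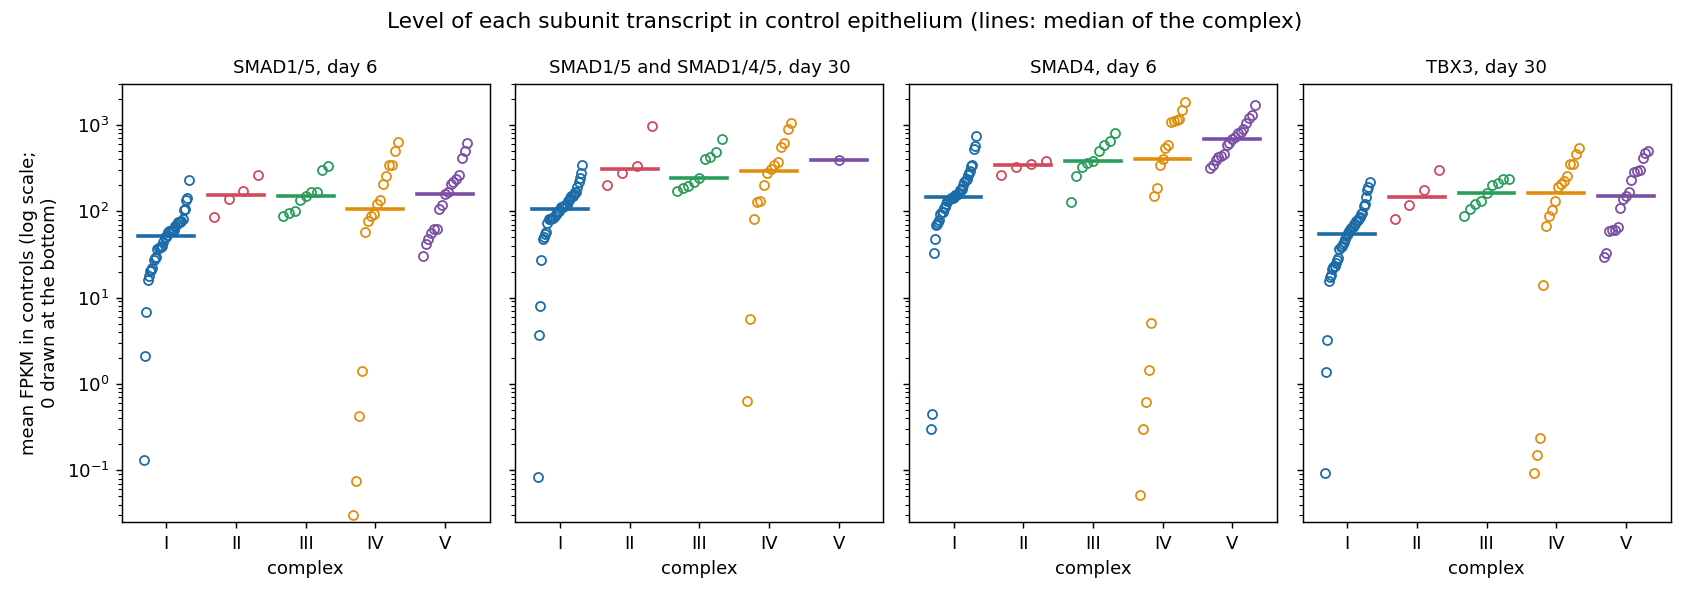
Mean FPKM of each subunit transcript in the controls of each table (log axis, open points, 1 point per gene) by complex, with the complex median as a line. Complex I has the lowest median in each of the 4 tables, and the points under 2 FPKM are Cox6b2, Cox6a2, Cox8b, Cox4i2 and Cox7b2 of complex IV and Ndufa4l2, Ndufa11b and Ndufb2 of complex I.

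Before any comparison, the libraries of one genotype differed in the subunit transcripts as a block. Each library was described by the median, over members, of its log2(FPKM + 0.5) minus the mean of the controls. At day 30, control 1 lay at 0.29 with 60 of 64 tested members above the control mean (93.8%). Control 2, of the same line and injection, lay at -0.15 with 4 of 64 above, and control 3 at -0.23 with 2 of 64 above. The 5 mutant libraries lay between -0.06 and 0.10, inside the range of the controls. The median over all genes tested stayed within 0.01 of the control mean in each of these libraries, and short genes outside the list (under 1000 bases) lay between -0.08 and 0.06. Members made up 1.86% to 2.56% of the summed FPKM of a library, with control 1 at the top and control 3 at the bottom. In bulk samples, fewer cells of a type and less RNA per cell cannot be told apart.

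The same held in the TBX3 table, where control 1 lay at 0.16 with 74 of 80 members above the control mean, control 2 at -0.14 with 5 of 80 above, and iKO 2 at 0.31 with 69 of 80 above. Short genes outside the list followed there, at 0.17, -0.10 and 0.33 in these 3 libraries, and goblet cell markers summed to 2602, 949.7 and 3251 FPKM. Their part in the block was not tested. At day 6 for SMAD1/5, the libraries numbered 2 were the highest of each genotype, control 2 at 0.14 with 71 of 80 members above the mean and iDKO 2 at 0.09 with 54 of 80 above. The other 4 libraries had 7 to 23 of 80 members above. The 2 libraries numbered 2 were also low in the 10 Paneth cell genes, at sums of 872 and 852 FPKM against 2904 to 9130 in the other 4, and Paneth cells mark the crypt base. Their part in the block was not tested, and values without both libraries are given below. The 4 SMAD4 libraries lay between -0.08 and 0.04.

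Across the 6 comparisons few subunit transcripts passed the test, which was limma on log2(FPKM + 0.5) over all genes with an adjusted p threshold of 0.05. Ndufb3 and Atp5e were lower in the libraries labelled SMAD1/5 iDKO at day 6, Cox6b2 was lower in the iTKO at day 30, and Cox7a1 was lower in the SMAD4 iKO. None was higher in any comparison. The members' differences were small and well bounded. At day 6 for SMAD1/5, 79 of 80 members (98.8%) had a 95% interval that lay within a 2-fold change either way, against 73.7% of all genes tested. The counts were 62 of 64 (96.9%, all genes 77.0%) for the iDKO at day 30, 63 of 64 (98.4%, all genes 82.3%) for the iTKO, 79 of 82 (96.3%, all genes 72.9%) for SMAD4 and 79 of 80 (98.8%, all genes 83.7%) for TBX3.

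**Figure D2:**
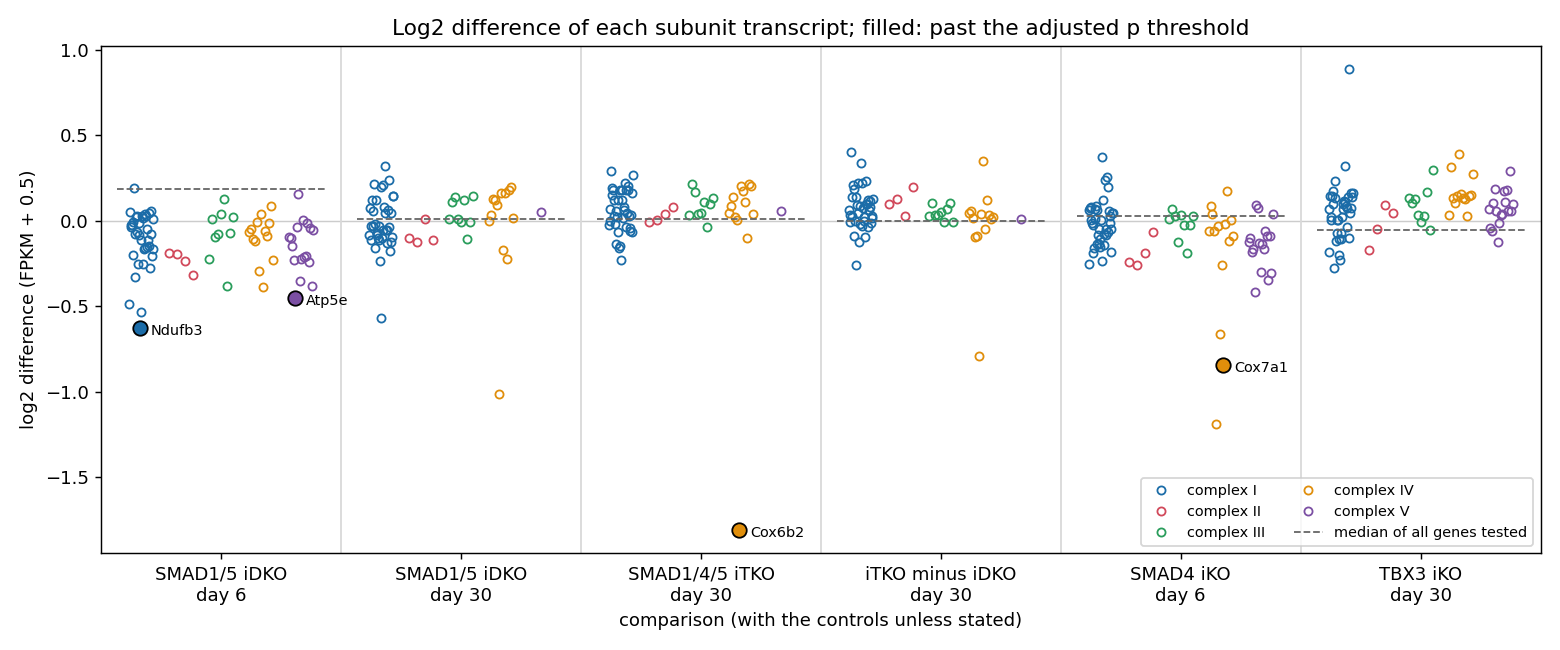
Log2 difference of each tested subunit transcript in 6 comparisons (mutant minus control, or iTKO minus iDKO), coloured by complex, filled and named where the adjusted p is under 0.05, with the median of all genes as a dashed line. The 4 named points are all below 0, and most other points lie within 0.5 of 0.

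At day 6, 80 of the 84 members were tested in the SMAD1/5 table, and 2 fell in the libraries labelled iDKO while none rose. Of all 10827 genes tested, 8.26% were lower and 15.5% higher, so the share of members called was below the background in both directions. Ndufb3, an accessory subunit of complex I, had 55.5, 62.3 and 64.2 FPKM in controls and 37.1, 44.4 and 36.1 in the iDKO. The groups did not overlap, and the difference was -0.63 ± 0.11 on the log2 scale (SE, adjusted p = 0.0112, limma). Atp5e (also Atp5f1e), the epsilon subunit of the catalytic head of the ATP synthase, had 55.8, 62.3 and 66.8 FPKM in controls and 40.01, 47.8 and 47.1 in the iDKO. These groups did not overlap either, at -0.45 ± 0.11 (SE, adjusted p = 0.0311, limma). Leaving out control 2, control 3 or any 1 iDKO library ended the call of Atp5e (adjusted p = 0.0566 to 0.0945), as did leaving out both libraries numbered 2 (adjusted p = 0.0763), while Ndufb3 stayed past the threshold in each.

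Residuals of libraries with the same number correlated at 0.143, 0.583 and 0.221 at day 6, highest for the libraries numbered 2. The labels do not say that equal numbers mark a pair. In an alternative fit with the number as a block, 5 members were lower and 0 higher. The added members were Atp5o, Uqcrfs1 and Atp5g3. Atp5o, which belongs to the stalk that holds the head of the ATP synthase, had 151, 176 and 146 FPKM in controls and 114, 136 and 113 in the iDKO. Its difference was -0.38 ± 0.12 (SE), with an adjusted p of 0.063 without the block and 0.0266 with it (limma). Uqcrfs1, the Rieske iron-sulfur protein of complex III, had 297, 334 and 266 FPKM in controls and 225, 259 and 205 in the iDKO, a difference of -0.38 ± 0.14 (SE, adjusted p = 0.0842 without the block and 0.0311 with it, limma). Atp5g3, the leading c ring gene, had 251, 303 and 243 FPKM against 195, 238 and 190 (-0.35 ± 0.14, SE, adjusted p = 0.106 without the block and 0.0349 with it, limma). In all 3 genes every iDKO library lay below every control. Leaving out both libraries numbered 2, Ndufb3 and Atp5o were the members called.

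The other members at day 6 spanned -0.54 to 0.19. In all, 61 of the 80 had a negative difference, against 3413 of 10827 genes, and 10 had groups that did not overlap (9 lower, 1 higher), against 49.3% of all genes. The members' median was -0.09, where the median of all genes was 0.18. Centring each library on its median took the median of all genes to 0.01 and that of the members to -0.26, with 3 members lower (Ndufb3, Atp5e and Ndufs1). The same centring turned the split of all genes called from 65.3% higher to 39.1% higher. Quantile normalisation instead gave a member median of -0.06 beside 0.04 over all genes. It called Ndufb3 and Atp5e lower, and 49% of all genes called were higher. The 4 genes of complex II, which also serves in the citric acid cycle, had the lowest median of the 5 complexes, at -0.22 (range -0.32 to -0.19), and none passed. Sdha, its flavoprotein, had 168, 172 and 167 FPKM in controls and 154, 146 and 145 in the iDKO, and these groups did not overlap (-0.19 ± 0.09, SE, adjusted p = 0.144, limma). The medians of complexes I, III, IV and V were -0.08, -0.07, -0.07 and -0.15. Cell type markers moved in the same libraries. Of 10 enterocyte markers 4 were lower and 0 higher (Lct, Anpep, Fabp2 and Sis, at -1.82, -1.48, -1.28 and -1.07), and their sums were 21632 to 25919 FPKM in controls and 22114 to 26008 in the iDKO. Of 6 tuft cell markers tested 5 were lower, with sums of 22.1 to 40.04 FPKM in controls and 11.4 to 12.9 in the iDKO. Proliferation markers (1 of 9 higher) summed to 48.1 to 96.6 FPKM in controls and 109.7 to 132 in the iDKO. The part of these cell types in the members' differences was not tested.

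None of 6 other core subunits passed the test at day 6. Ndufs1, with iron-sulfur clusters of complex I, was at 21.8 ± 1.0 FPKM in controls and 19.5 ± 0.7 in the iDKO (SD, n = 3, log2 difference -0.16, adjusted p = 0.19, limma). Ndufv1, which binds NADH, was at 74.5 ± 7.5 against 64.4 ± 6.3 (SD, n = 3). Cyc1, cytochrome c1 of complex III, was at 338 ± 43 against 288 ± 35, and Cox4i1 at 341 ± 31 against 326 ± 37 (SD, n = 3). Cox5a, next to it in complex IV, was at 253 ± 30 against 244 ± 33, and Atp5b, the catalytic beta subunit, at 497 ± 16 against 464 ± 14 (SD, n = 3). Of these, Ndufs1 and Atp5b did not overlap between groups, and the difference of Atp5b (-0.10) was 0.13 after quantile normalisation. Ndufa1, a small membrane subunit of complex I, had the largest difference of the members not called in any of these fits after Ndufb4c, at -0.49 ± 0.20 (SE, adjusted p = 0.109, limma). Ndufb4c, at -0.54 ± 0.24 (SE), has a close copy in Ndufb4, and its value is uncertain because reads could be split between them.

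At day 30, 64 of the 66 members were tested. In the libraries labelled SMAD1/5 iDKO, 0 were higher and 0 lower, against a background of 9.43% higher and 9.31% lower among 11939 genes. There 2 members had an unadjusted p under 0.05, against 3767 of all genes. In the iTKO, 0 were higher and 1 lower, against 9.13% and 8.95%. Between iTKO and iDKO, 0 differed in either direction, against 0.218% higher and 0.544% lower. There 1 member (Ndufa7) had an unadjusted p under 0.05, against 1366 of the 11939 genes. Both mutants shared the 5 controls. The members' median difference was 0.0020 for the iDKO, 0.06 for the iTKO and 0.04 between them, beside 0.01, 0.0083 and -0.0024 over all genes. Members without overlap numbered 2 of 64 for the iDKO (34.6% of all genes), 1 for the iTKO (25.6%) and 18 for iTKO against iDKO (26.8%), of which 15 were higher in the iTKO. The last share is near that of all genes. Its direction depends on 1 library, since the members' median between the mutants was -0.03 without iDKO 2. The range of the member medians among controls, from -0.23 to 0.29, is wider than any of these differences.

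Cox6b2 was the member that moved most at day 30. It had 2.80, 5.80, 8.10, 4.81 and 7.08 FPKM in the 5 controls, 2.57 and 2.28 in the iDKO and 0.888, 1.91 and 0.928 in the iTKO. All 5 mutant libraries lay below all 5 controls, and the 3 iTKO libraries lay below the 2 iDKO libraries. The difference from controls was -1.81 ± 0.30 for the iTKO (SE, adjusted p = 0.00246, limma) and -1.02 ± 0.34 for the iDKO (SE, adjusted p = 0.0642, limma). The iTKO minus the iDKO gave -0.79 ± 0.37 (SE, adjusted p = 0.459, limma), so a difference between the mutants was not shown. Leaving out control 1, the lowest control for this gene and the library with the highest subunit block, gave -1.23 for the iDKO with an adjusted p of 0.0112. Against the controls of its own line only, it was -0.64 for the iDKO (adjusted p = 0.322) and -2.06 for the iTKO (adjusted p = 0.00291, limma). These levels are near the minimum of 1 FPKM, and the pseudocount moves them: the iTKO difference was -2.11 with 0.1 and -1.55 with 1. Its widespread partner Cox6b1 had a mean of 613 ± 118 FPKM in controls (SD, n = 5) and 654 ± 153 in the iDKO (SD, n = 2).

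Cell type markers moved in the same libraries. Of 10 Paneth cell genes, 9 were lower in the iDKO and 9 in the iTKO, where 1 was higher, with sums of 20217 to 27573 FPKM in controls, 10058 and 12136 in the iDKO and 11208 to 16498 in the iTKO. Of 7 T cell genes, 5 were lower in the iDKO and 7 in the iTKO, with sums of 163 to 257 FPKM in controls and 61.4 to 111 in the mutants. Of 7 goblet cell genes, 5 were lower in each, with sums of 8513 to 10496 FPKM in controls and 4360 to 5738 in the mutants. Of 9 enteroendocrine genes, 5 were lower in the iDKO and 7 in the iTKO, with sums of 389 to 575 FPKM in controls and 210.02 to 307 in the mutants. Of 10 enterocyte genes, 3 were lower and 1 higher in the iDKO and 5 lower and 1 higher in the iTKO. Of 6 crypt and stem cell genes, 2 were lower in the iDKO, and 3 were lower and 1 higher in the iTKO. The part of these cell types in the change of Cox6b2 was not tested.

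The remaining day 30 members spanned -0.57 to 0.32 in the iDKO and -0.23 to 0.29 in the iTKO. Ndufb3 had 86.9, 63.3, 68.5, 72.8 and 72.8 FPKM in controls, 61.7 and 61.2 in the iDKO and 70.8, 64.3 and 60.9 in the iTKO. Its iDKO libraries lay just below the lowest control, at -0.24 ± 0.12 (SE, adjusted p = 0.19, limma), and its iTKO libraries overlapped the controls. Sdha was at 967 ± 115 FPKM in controls, 894 ± 2 in the iDKO and 955 ± 46 in the iTKO (SD, n = 5, 2 and 3). Ndufb4c had the lowest difference of complex I in the iDKO, at -0.57 ± 0.23 (SE, adjusted p = 0.116, limma), on levels of 2.37 ± 1.05 FPKM (SD, n = 2) against 3.66 ± 0.68 (SD, n = 5), and without iDKO 1 its adjusted p was 0.0486, with 1 iDKO library left that is assumed to vary like the other groups. Ndufc1 was called higher in the iDKO only without control 1 (adjusted p = 0.0447), and without that library Ndufa2 was called higher in the iTKO (adjusted p = 0.0372, limma). Ndufa7 was at 121 ± 14 FPKM in the iDKO (SD, n = 2) and 100.4 ± 1.3 in the iTKO (SD, n = 3), with the mutants not overlapping (-0.26 ± 0.11, SE, adjusted p = 0.405, limma). Atp5pb, in the stalk of the ATP synthase, was at 389 ± 75 FPKM in controls, 397 ± 24 in the iDKO and 399 ± 6 in the iTKO (SD, n = 5, 2 and 3).

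In the SMAD4 table, 82 of the 87 members were tested, and 0 were higher and 1 lower in the iKO, against 1.28% higher and 2.14% lower of 12202 genes. The member that fell was Cox7a1, at 331 and 347 FPKM in controls and 188 and 189 in the iKO. The groups were far apart relative to their spread, and the difference was -0.85 ± 0.11 (SE, adjusted p = 0.0322, limma). Leaving out either control or either iKO library ended the call (adjusted p = 0.0983 to 0.181), as did quantile normalisation (-0.72, adjusted p = 0.0567), no filter (adjusted p = 0.0816) and a fit without the trend (adjusted p = 0.0621). Stromal, muscle and endothelial markers, 7 of them in this table and 1 of these tested, summed to 4.03 and 5.23 FPKM in controls and 3.20 and 7.26 in the iKO, near 0 in all 4 libraries. T cell markers (1 of 7 lower) summed to 130 and 102 FPKM in controls and 33.4 and 54.7 in the iKO, and 3 of 10 enterocyte markers were lower and 1 higher; their part in the fall of Cox7a1 was not tested. In the other tables Cox7a1 did not pass: at day 6 for SMAD1/5 it had 71.7, 72.8 and 89.2 FPKM in controls and 56.4, 73.6 and 49.6 in the iDKO (-0.39 ± 0.17, SE, adjusted p = 0.125, limma). The partner Cox7a2 was at 400.2 ± 9.1 FPKM in SMAD4 controls and 395 ± 17 in the iKO (SD, n = 2).

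With Cox7a1, 7 of the 82 tested members of the SMAD4 table had an unadjusted p under 0.05, against 2539 of 12202 genes. The others did not pass the adjustment. Atp5e was among them, with 805 and 964 FPKM in controls and 654 and 663 in the iKO (-0.42 ± 0.14, SE, adjusted p = 0.178, limma). Atp5md, Atp5o and Atp5h, also of the ATP synthase, gave -0.35, -0.31 and -0.30 (adjusted p = 0.187, 0.213 and 0.237, limma). Cox6a2 gave -1.19 on levels of 1.58 and 1.32 FPKM against 0.164 and 0.591, which lie near the pseudocount. Ndufb6 was the one of the 7 with a positive difference, at 133.2 ± 9.7 FPKM in controls and 172.5 ± 19 in the iKO (SD, n = 2, log2 difference 0.37, adjusted p = 0.232, limma). Complex II again had the lowest median, -0.22, with Sdhb at 369 and 403 FPKM in controls and 333 and 311 in the iKO (adjusted p = 0.304, limma). Complex V had a median of -0.13, with 14 of 17 members negative, and complexes I, III and IV had -0.02, 0.01 and -0.06. Members without overlap numbered 33 of 82 (26 lower, 7 higher), against 52.9% of all genes. The median of all members was -0.06 beside 0.03 over all genes, and it was 0.02 after quantile normalisation.

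In the TBX3 table, 80 of the 84 members were tested, and 0 were higher and 0 lower in the iKO at day 30 by limma, with 0 at an unadjusted p under 0.05. The background was 1.34% higher and 2.08% lower of 9794 genes, with 1696 of them at an unadjusted p under 0.05. The median of the members was 0.08, where that of all genes was -0.06, and without iKO 2 it was -0.01. Complex IV had the highest median, 0.14, with all 13 tested members positive, and complexes I, II, III and V had 0.07, -0.0019, 0.10 and 0.06. Cox6b2 had 10.2, 15.7 and 16.2 FPKM in controls and 17.6, 17.5 and 19.5 in the iKO. These groups did not overlap, and the difference did not pass (0.39 ± 0.18, SE, adjusted p = 0.343, limma). It was 1 of 2 members without overlap, with Ndufs8, against 23.7% of all genes. Ndufs5 had the largest difference, 0.89 ± 0.50 (SE, adjusted p = 0.438, limma), and this came with 1 library: control 2 had 7.33 FPKM, against 27.2 and 29.6 in the other controls and 29.2 to 43.9 in the iKO. Ndufb3 (135, 104 and 103 FPKM in controls, 96.4, 121 and 99.1 in the iKO) and Cox7a1 (117, 89.9 and 104 FPKM, against 126, 119 and 95.4) overlapped. Atp5e was at 59.4 ± 11.9 FPKM in controls and 67.1 ± 11.2 in the iKO (SD, n = 3).

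**Figure D3:**
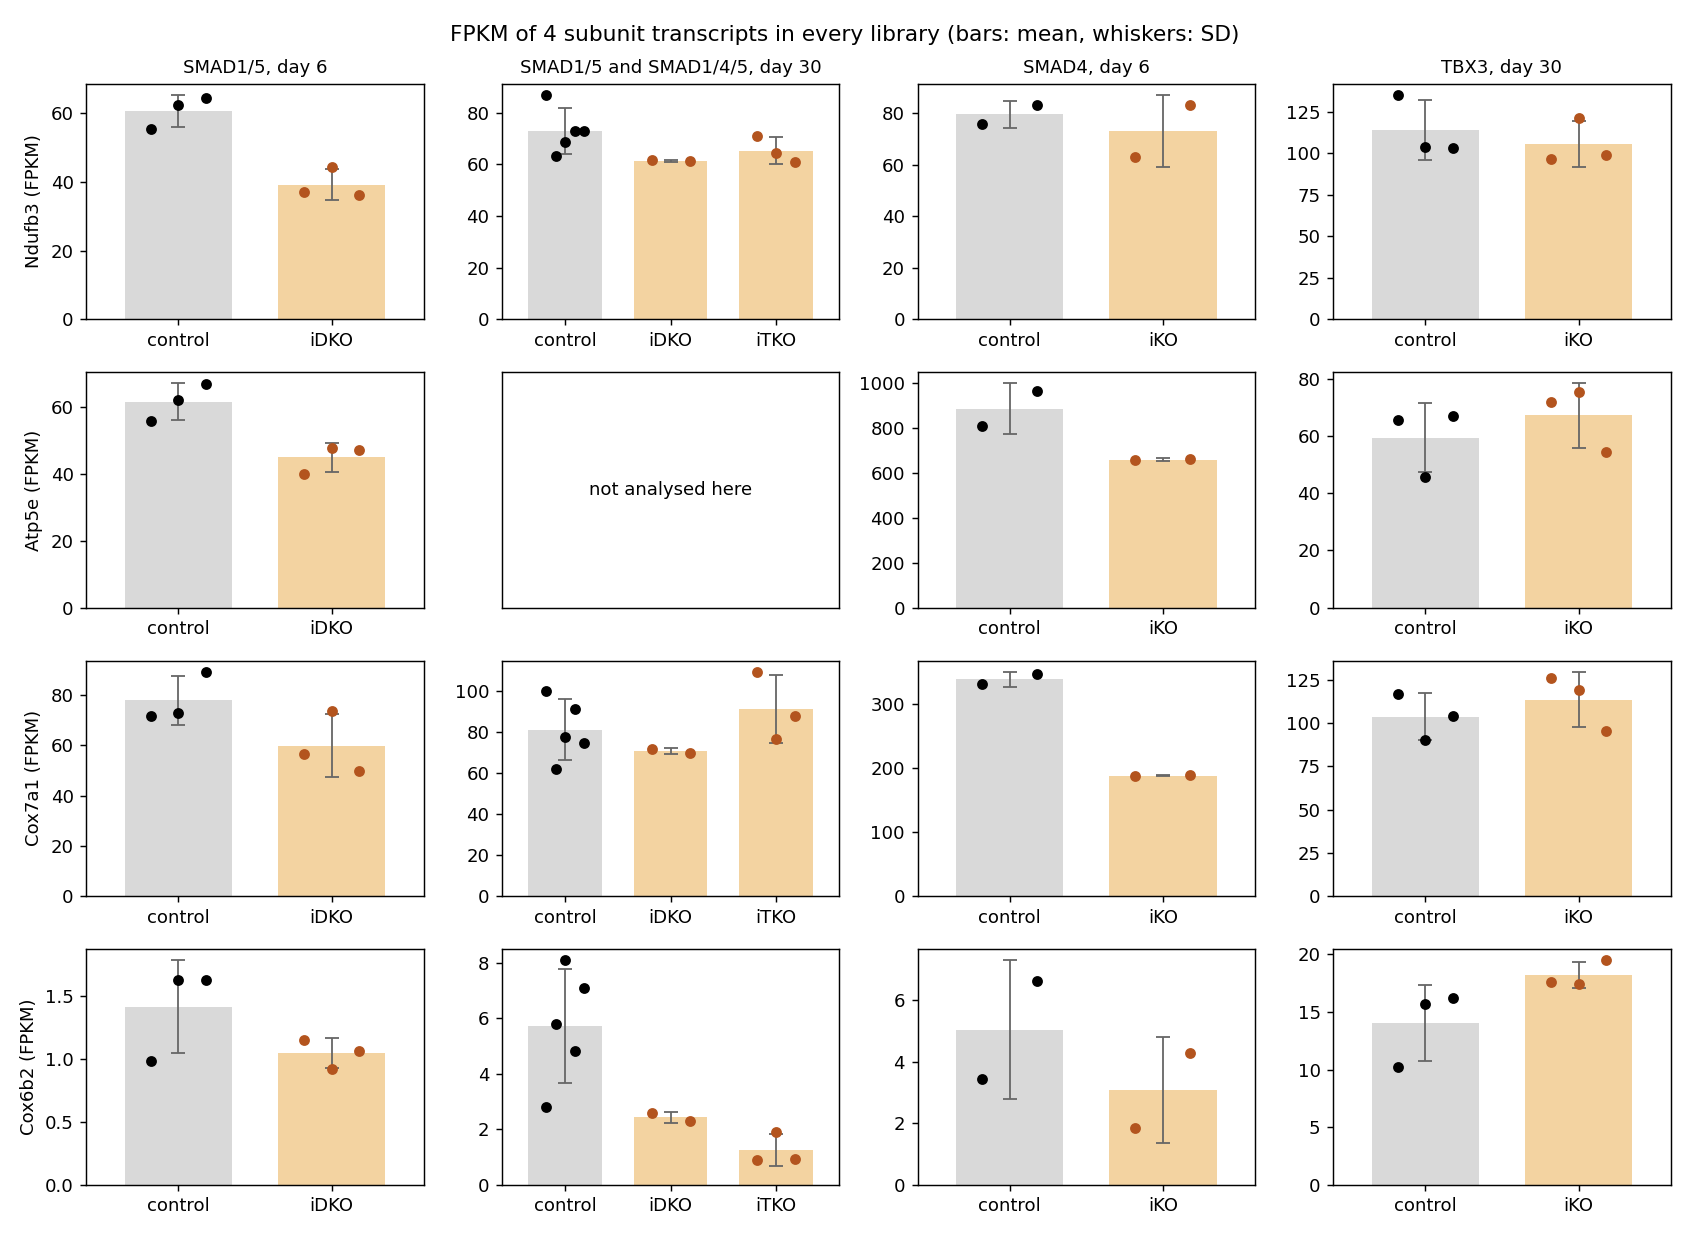
FPKM (linear axes from 0) of Ndufb3, Atp5e, Cox7a1 and Cox6b2 in the tables that list them, with every library as a point, the group mean as a bar and the SD as a whisker. The day 30 SMAD table has no row for Atp5e. Of the differences past the threshold, the groups are apart for Ndufb3 and Atp5e at day 6 (SMAD1/5), for Cox6b2 at day 30 (iTKO 0.888 to 1.91 FPKM, controls 2.80 to 8.10) and for Cox7a1 in the SMAD4 table. Mutants not past the threshold are also apart from controls for Ndufb3 and Cox6b2 in the day 30 iDKO (lower), Atp5e in the SMAD4 table (lower) and Cox6b2 in the TBX3 table (higher).

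Other mitochondrial and fuel genes were described for context from lists of their known roles. In the libraries labelled SMAD1/5 iDKO at day 6, the citric acid cycle and pyruvate entry list had 6 of 20 members lower and 0 higher, beside 8.26% lower and 15.5% higher of all genes. Ogdh, the oxoglutarate dehydrogenase subunit, went from 276 ± 25 to 166 ± 7 FPKM (SD, n = 3, log2 difference -0.73, adjusted p = 0.00537, limma). Cs, citrate synthase, which opens the cycle, went from 424 ± 72 to 269 ± 20 FPKM (SD, n = 3, log2 difference -0.64, adjusted p = 0.0237, limma). At day 30 the same list had 6 of 20 lower and 0 higher in the iDKO (Ogdh at -0.70; all genes 9.31% lower) and 3 of 20 lower and 0 higher in the iTKO (Ogdh at -0.50; all genes 8.95% lower). In the SMAD4 iKO 1 of 20, Ogdh, was lower (-0.83, adjusted p = 0.0468, limma, all genes 2.14% lower). In the TBX3 iKO 0 of 20 changed (0 at an unadjusted p under 0.05, against 1696 of 9794 genes, limma). The list's median was -0.06 at day 6, and -0.06 in the iDKO and 0.03 in the iTKO at day 30.

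Of 14 glycolysis genes, 3 were higher and 1 lower at day 6, beside 15.5% and 8.26% of all genes. At day 30, 4 of 15 were higher and 0 lower in the iDKO (all genes 9.43% higher), and 5 of 15 higher and 0 lower in the iTKO (all genes 9.13% higher). In the SMAD4 iKO 2 of 15 were higher (all genes 1.28%), and in the TBX3 iKO 1 of 14 (all genes 1.34%). Aldoa, aldolase A, rose at day 6 from 91.0 ± 8.1 to 186 ± 24 FPKM (SD, n = 3, log2 difference 1.03, adjusted p = 0.00306, limma). Pfkl, the liver type phosphofructokinase, rose from 10.2 ± 1.2 to 27.8 ± 1.5 FPKM (SD, n = 3, log2 difference 1.41, adjusted p = 0.000533, limma), and Pkm, pyruvate kinase M, fell from 503 ± 40 to 325 ± 12 FPKM (SD, n = 3). The carriers and pores that move ADP, phosphate and protons across the inner membrane were split. Slc25a5, the main ADP/ATP carrier here, fell from 974 ± 81 to 635 ± 38 FPKM at day 6 (SD, n = 3, log2 difference -0.62, adjusted p = 0.0181, limma), while Slc25a4, another ADP/ATP carrier, rose from 2.23 ± 0.42 to 4.10 ± 0.82 FPKM. In the TBX3 iKO 3 of 9 rose, beside 1.34% of all genes. Slc25a4 went there from 2.41 ± 0.72 to 16.3 ± 3.3 FPKM (SD, n = 3, log2 difference 2.54, adjusted p = 0.00476, limma).

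Lists close to the subunits in function also stood beside them at day 6 for SMAD1/5. Of 77 mitochondrial ribosomal protein genes, which translate the subunits encoded in mitochondrial DNA, 10 were higher and 0 lower, with a median of 0.24 beside 0.18 for all genes. The share of all genes higher in that comparison was 15.5%, which is above the share of this list and of the assembly factors. Among 15 electron carrier genes and subunits with other symbols 5 were higher and 0 lower (Etfdh, Pdss1, Coq6, Coq2 and Coq3). These serve ubiquinone synthesis or use, as do most genes of the list, so their shared role follows largely from its make-up. At day 30 Coq8a, another gene of ubiquinone synthesis, fell from 43.1 ± 4.1 FPKM (SD, n = 5) to 16.3 ± 4.5 in the iDKO (SD, n = 2, log2 difference -1.40, adjusted p = 0.000359, limma), the 1 gene of this list called there. In the iTKO Coq8a fell (-0.91, adjusted p = 0.00211) while Pdss1 and Coq5 rose (0.75 and 0.42, adjusted p = 0.00443 and 0.0259, limma). Of all genes, 9.31% were lower in the iDKO at day 30, and 9.13% were higher and 8.95% lower in the iTKO. Of 47 assembly factors 3 were higher and 0 lower (Coa3, Bcs1l and Ndufaf2). Median centring moves every log2 difference at day 6 down with the median of all genes, from 0.18 to 0.01, so these counts rest on the scaling as deposited. Of 18 regulators of mitochondrial biogenesis, 2 were higher and 1 lower at day 6, beside 15.5% and 8.26% of all genes. Their median was 0.23, beside 0.18 for all genes. Hnf4a, a nuclear receptor of the gut epithelium, rose from 165 ± 3 to 254 ± 6 FPKM (SD, n = 3, log2 difference 0.62, adjusted p = 0.00508, limma), and Polg, the mitochondrial DNA polymerase, rose by 0.40 (adjusted p = 0.048). At day 30 in the iDKO 1 of 20 was higher (Hnf4a at 0.39, adjusted p = 0.0181, limma) and 2 were lower (Ppargc1a, and Esrrg at -1.17). Of all genes there, 9.43% were higher and 9.31% lower. Ppargc1a, a coactivator that drives mitochondrial gene transcription, fell from 11.3 ± 1.5 to 4.71 ± 0.79 FPKM at day 6 (SD, n = 3, log2 difference -1.19, adjusted p = 0.00335, limma) and from 25.5 ± 3.5 (SD, n = 5) to 9.74 ± 4.42 FPKM (SD, n = 2) in the iDKO at day 30 (log2 difference -1.40, adjusted p = 0.00284, limma). In the iTKO 0 of 20 biogenesis regulators changed, beside 9.13% higher and 8.95% lower of all genes. Of these regulators 1 had an unadjusted p under 0.05 (limma), against 3793 of 11939 genes.

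**Figure D4:**
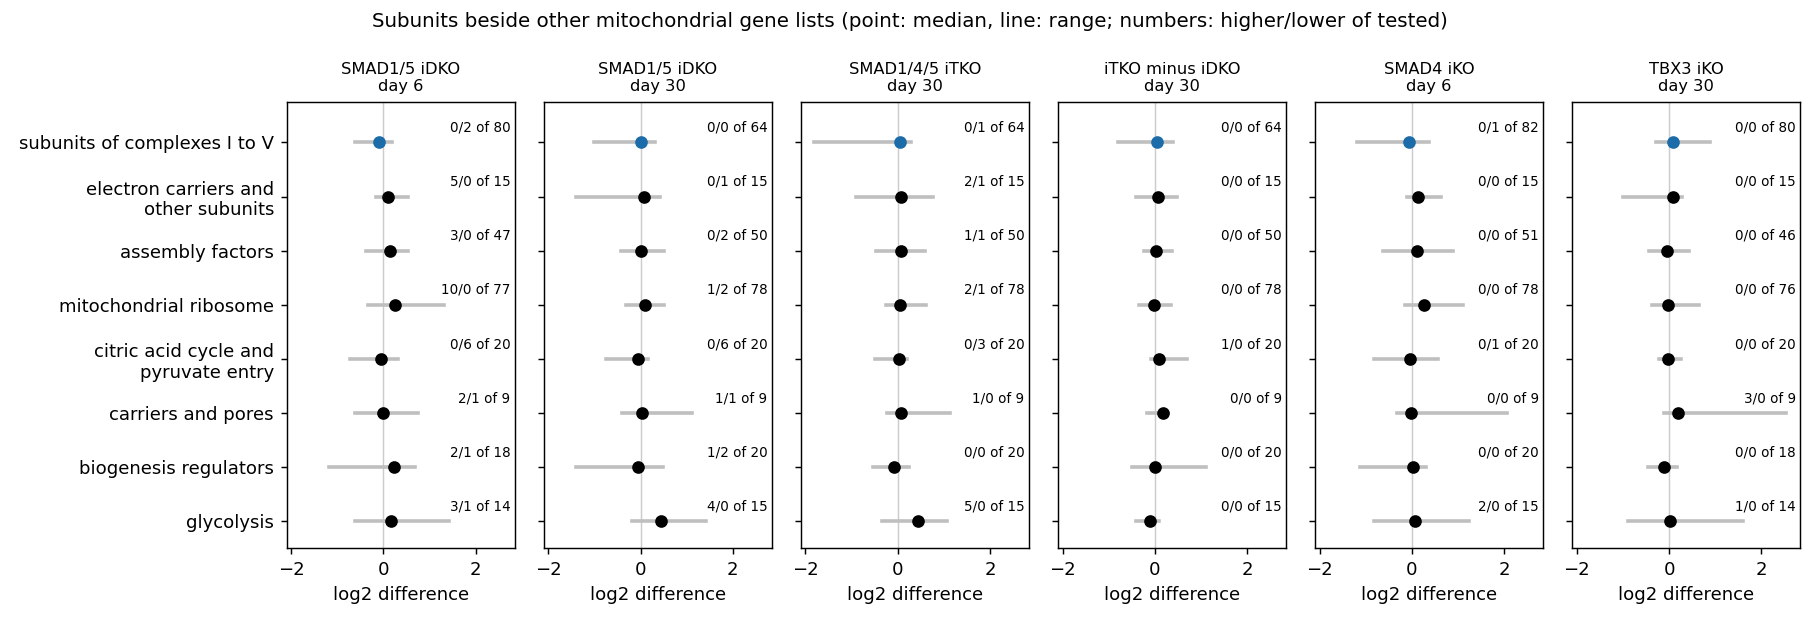
Log2 differences of the subunits (blue) and of 7 other gene lists (black) in the 6 comparisons, with the median as a point, the range from lowest to highest member as a line, and the number higher and lower of those tested at the right. The subunit medians lie between -0.09 and 0.08, and the citric acid cycle list has 6 of 20 lower in the iDKO at day 6 and at day 30.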

How the data were processed

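RNA from 26 mouse libraries had been sequenced by polyadenylated selection and paired-end reads. The authors deposited 4 tables of FPKM values, normalised separately. Per the submitters' processing notes HISAT2 2.2.1 and featureCounts 2.0.1 (Subread) were used, and GRCm39 and mm10 are named without saying which table used which. Strand is not given in the sources used here.

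Repeated symbols kept their first row. Genes with at least 1 FPKM in as many libraries as the smallest group were tested with limma 3.58.1 in R 4.3.3 on log2(FPKM + 0.5), with a mean-variance trend and Benjamini-Hochberg adjustment over all genes (threshold 0.05); fold changes of low genes are understated on this scale. Tests stayed within a table. The fit was tested on simulated data, but no outcome of that test is given here, and it is not used as support. The day 30 fit used all 10 libraries. Members and lists were chosen with earlier results of these data known. By a fixed rule the text names, per comparison and complex, up to 3 members past the threshold and the member with the largest difference, plus core subunits and isoform sets, and up to 3 called members of each other list. Members outside it (Ndufa1, Ndufa2, Ndufa7, Ndufc1, Ndufs8, Atp5o, Atp5md and Atp5h) and the other names in short lists were chosen after their values were seen. FPKM hold no counts, so no counting intervals are given; depths were estimated from the steps of low values. Residuals of same-numbered day 6 SMAD1/5 libraries correlated at r of 0.143, 0.583 and 0.221. This was read as possible pairing, though the labels name no pairs, and the main fit has no block. The 2 SMAD4 pairs (0.283 each) are too few to judge. In the other tables r ran from -0.312 to 0.253. Alternatives were other pseudocounts, filters, scalings, fits and left-out libraries. Within groups libraries correlated at 0.955 or more, and no 2 were identical.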

Additional observations from a re-analysis of the deposited data

Results flagged for a closer look

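Cox6b1, the widely expressed isoform of complex IV subunit 6B, had one control library of the day 30 SMAD table far above the others of its group. Control 1 had 816.63 FPKM, where the median of the 5 controls was 583.67, and its gap to the next control took a share of 0.759 of the group's range. Chance marks about 1 in 20 such groups, and 27 values were checked this way. Control 1 was also the library with the highest member median (0.29), and the iDKO and iTKO means of Cox6b1, 654 and 607 FPKM, lay below it.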

How the results depend on the processing

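At day 6 for SMAD1/5 the number of members called moved from 2 to 4 with no filter (1 higher, Cox8b, and 3 lower) and to 5 with the replicate block, and was 1 to 2 when 1 library was left out. The member median there was -0.2584 after median centring and -0.0638 after quantile normalization. At day 30 leaving out 1 library gave 0 to 2 calls for the iDKO and 1 to 2 for the iTKO, in each case highest without control 1. For SMAD4 the call was lost (0 members) with no filter, with quantile normalization, with no trend and whenever 1 library was left out, and the member median was 0.02497 after quantile normalization. The cause of these changes was not tested. The replicate block changed no other count of members called. No called member changed direction, while 58 of 124 named differences that were not called changed sign in some setting. The member median changed sign for SMAD4 with quantile normalization, for TBX3 without iKO 2 (-0.01), for the iTKO without control 3 (-0.0020), for iTKO against iDKO without iDKO 2 (-0.03) and for the iDKO at day 30 in 5 settings (down to -0.07 with controls of its own line). Under the alternatives Atp5e lost its day 6 call in 6 settings and Cox7a1 its SMAD4 call in 7. The choice to leave out both day 6 libraries numbered 2 was made after seeing the data. Depth limits low isoforms such as Cox6b2 most, and the SMAD4 groups and the day 30 iDKO, of 2 libraries each, keep 1 library when 1 is left out, which is then assumed to vary like the other groups.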
